A study of Homo sapiens with 5 samples.

Results

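The lysosome is the acidic compartment in which a cell breaks down what it has taken up or set aside, and monocytes and macrophages are rich in it. Soluble hydrolases in its lumen cut lipids, sugars and proteins, glycosylated membrane proteins line its inner face, and the vacuolar proton pump (V-ATPase) acidifies it. In the pump, a catalytic V1 sector on the cytosolic side hydrolyses ATP and drives a membrane-embedded V0 sector that carries the protons. The transcription factor TFEB switches on many of these genes through an extended E-box, known as the CLEAR motif, in their promoters.

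The expression of these genes was examined in MonoMac6 cells, an established monocytic cell line of human origin, with eicosanoids added to the medium. The 5 arrays read total RNA of cells kept for 12 h with 100 nM of leukotriene B4 or leukotriene C4, or of lipoxin A4 or B4, each added from a DMSO stock, and of unstimulated cells. The labels do not say if the unstimulated cells also received DMSO. Each condition had 1 array, so the error of a difference was not measured and no difference was tested.

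The lysosomal genes were chosen by name: every gene whose symbol starts with ATP6V0 or ATP6V1, and 25 listed hydrolases, membrane proteins and regulators, with cathepsins left out. A probe set, the group of short probes that reads 1 transcript, counted only where the platform annotation gave it a single gene symbol. This took 118 probe sets of 44 genes, among 41097 probe sets of 19775 genes. The listed CD68 and GLB1 had no probe set with a single symbol, nor had the pump subunit genes ATP6V1F and ATP6V0A4. None of these has a value here. ATP6V0E2-AS1 entered through its symbol, but it is an antisense RNA and not a pump subunit.

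The values are signals, scaled so that the 5 arrays had the same median over their upper 50% of probe sets, and a signal under a floor of 48.7 was set to the floor. A probe set above the floor on at least 1 array was called measured, and each gene was read by its brightest measured probe set unless stated. On this basis 42 of the 44 genes were measured, and 39 lay above the floor on all 5 arrays. ATP6V1C2 and ATP6V1G3, isoforms of pump subunits, lay below the floor on every array, with highest signals of 38.8 and 43.6. Differences are log2 differences between arrays, stimulated minus unstimulated unless another pair is named. Genes past 2-fold were counted in each direction, and a second count was made at 1.5-fold, a log2 difference of 0.58.

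The arrays bore out the monocytic label in part. Of 14 monocytic markers, 13 had a probe set and 11 lay above the floor on all arrays, led by LYZ, the lysozyme gene, at 49119 on the unstimulated array, while FCGR1A was below it on all. Their summed signal was 81205 to 106492 on the stimulated arrays and 109524 on the unstimulated array. Medians of the marker lists of T cells, B cells, erythroid, epithelial and other cells were 6.75 to 103, beside 377 to 525 for the monocytic list. Single genes of the other lists were bright. PECAM1 of the fibroblast and endothelial list reached 5138, and MBP of the nerve and muscle list reached 1614. The RNA controls were even, with 3′/5′ signal ratios of 1.10 to 1.13 for ACTB and 0.996 to 1.06 for GAPDH. Of the controls, 18S rRNA was brighter on every stimulated array, by up to 3.41-fold on its bright 3′ probe set and 16.5-fold on the dimmer of its probe sets, both with leukotriene C4. The brightest controls were dimmer on the lipoxin B4 array: the spiked-in cre control differed by -0.38, GAPDH by -0.36 and ACTB by -0.51. The part of these in the results was not tested.

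Lysosomal transcripts were abundant on every array. The mean signal was at least 500 for 35 of the 42 measured genes, and 28 had at least 2000. Among all 15374 measured genes, 7097 reached 500 and 3129 reached 2000. The dim members were TFEB, IDS and the tissue-restricted pump isoforms ATP6V0D2, ATP6V1B1, ATP6V1E2 and ATP6V1G2, beside ATP6V0E2-AS1. The limit of 500 was chosen after the values were seen, and it was set because dim genes scatter more. Between stimulated arrays, genes with a signal under 100 differed by 0.43 (root mean square of the log2 differences), genes between 100 and 200 by 0.50, and genes of at least 2000 by 0.17.

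**Figure D1:**
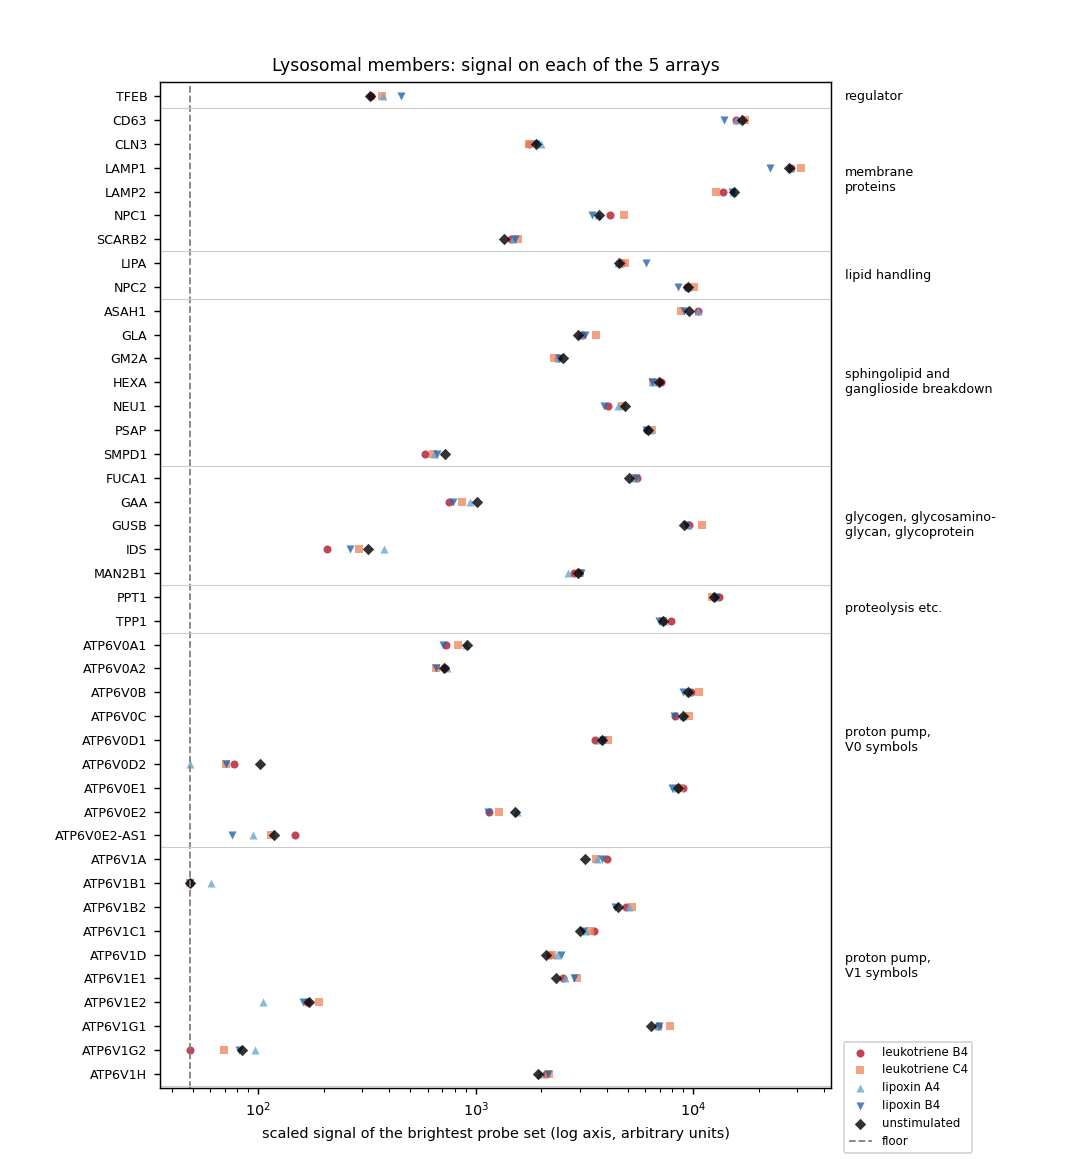
Scaled signal (log axis, arbitrary units) of the brightest measured probe set of each of the 42 measured lysosomal genes, grouped by role, with 1 symbol per array. For most genes the 5 symbols nearly coincide; the points are spread for the dim genes near the floor of 48.7 (dashed line).

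Because the CLEAR motif is the known link between TFEB and these genes, the RefSeq promoters (GRCh38.p14, 250 bases before to 50 after the start of transcription) were searched for it. The motifs were the core E-box CACGTG, the longer TCACGTGA, and the full palindrome in which TCACGTGA is preceded by G and followed by C. Each holds the shorter one and reads the same on both strands. A promoter was given for 33 of the 44 genes, with 52 promoters in all, and for 27305 genes in the table, with 35116. The E-box stood in the promoters of 9 of these 33 genes, 27.3%, against 8.77% of 27305 genes in the table. TCACGTGA was found for 5 genes, 15.2% against 1.18%, and the full palindrome for 2 genes, 6.06% against 0.421%. The motif was searched because it was known from such genes, so the shares are a description and not a test. A gene with more promoters also has more chances to hold a motif.

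LAMP1, GAA and ATP6V1G1 are printed because they hold the most E-boxes or the longest motif. The 250 bases upstream of the start are given 5′ to 3′ on the gene's strand, and the capitals mark CACGTG. LAMP1 lies on the plus strand at chr13:113296989-113297238, GAA on the plus strand at chr17:80101331-80101580, and ATP6V1G1 on the plus strand at chr9:114587519-114587768.
LAMP1: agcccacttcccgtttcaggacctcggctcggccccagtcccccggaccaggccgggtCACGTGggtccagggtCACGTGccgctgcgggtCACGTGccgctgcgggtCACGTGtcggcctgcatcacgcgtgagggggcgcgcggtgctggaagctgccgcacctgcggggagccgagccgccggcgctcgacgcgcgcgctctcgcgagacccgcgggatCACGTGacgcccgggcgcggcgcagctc
GAA: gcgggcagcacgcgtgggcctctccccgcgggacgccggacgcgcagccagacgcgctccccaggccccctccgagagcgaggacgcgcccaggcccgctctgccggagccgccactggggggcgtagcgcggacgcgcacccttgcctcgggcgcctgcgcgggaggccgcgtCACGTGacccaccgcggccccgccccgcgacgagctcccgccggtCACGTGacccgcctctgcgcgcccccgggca
ATP6V1G1: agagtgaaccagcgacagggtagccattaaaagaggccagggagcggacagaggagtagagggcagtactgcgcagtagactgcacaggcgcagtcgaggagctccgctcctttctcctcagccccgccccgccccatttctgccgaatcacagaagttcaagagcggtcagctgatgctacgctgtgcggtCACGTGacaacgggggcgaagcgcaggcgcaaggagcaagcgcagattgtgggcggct

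LAMP1 holds 5 E-boxes in this stretch and a sixth, at position -1, that runs across the start. In GAA both E-boxes, at -76 and -31, lie in the full palindrome, and so does the single one of ATP6V1G1 at -58. For each of the other genes, 1 E-box site is given as 24 bases on the gene's strand with CACGTG in capitals, to let the bases beside the core be compared. ATP6V0D1 lies on the minus strand at chr16:67481202-67481225, CLN3 on the minus strand at chr16:28492061-28492084, NEU1 on the minus strand at chr6:31862933-31862956, ATP6V0E2 on the plus strand at chr7:149872887-149872910, ATP6V0B on the plus strand at chr1:43974912-43974935 and CD63 on the minus strand at chr12:55729175-55729198.
ATP6V0D1: ccttatggtCACGTGaggcgcttg
CLN3: gggtgctgtCACGTGatccgacaa
NEU1: ctgcgtgatCACGTGggaggagat
ATP6V0E2: cttctgcatCACGTGgggactgcg
ATP6V0B: ccggcgcatCACGTGggcgagtta
CD63: ggtaggggcCACGTGgccctggcc
The printed sites of ATP6V0D1 and CLN3 have T before and A after the core and so read TCACGTGA, as do those of LAMP1 at -28 and -1. The sites of NEU1, ATP6V0E2 and ATP6V0B have T before the core but G after it. ATP6V0B and CLN3 hold a further E-box each, at -57 and -30, neither of which reads TCACGTGA.

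**Figure D2:**
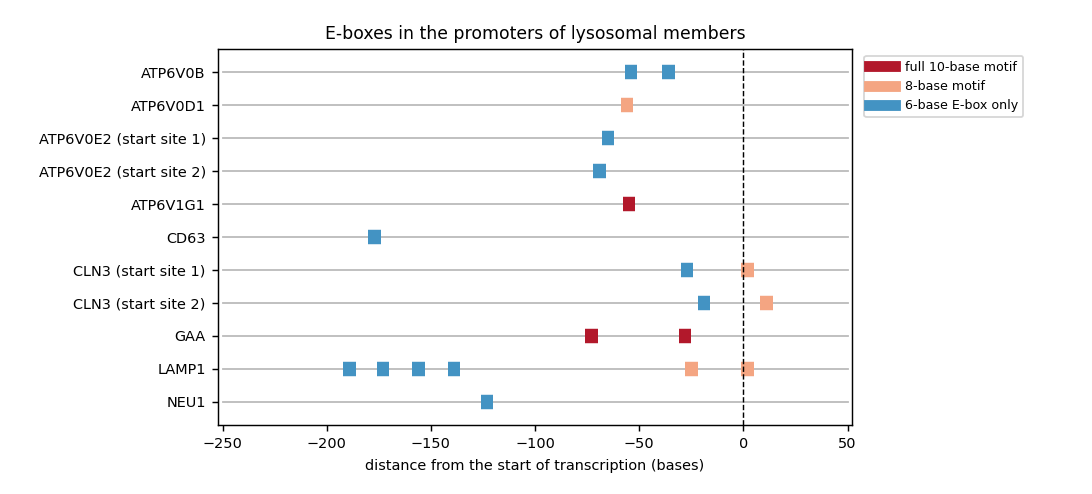
Position of each CACGTG (blocks) in the 300-base promoter windows of the 9 lysosomal genes that hold one, in bases from the start of transcription (dashed line), coloured by how much of the longer motif surrounds it. LAMP1 has 6 blocks, GAA has 2 full motifs, and ATP6V0E2 and CLN3 are drawn for each of their start sites.

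TFEB itself gave no common direction. Its brighter probe set had signals of 329.5 with leukotriene B4, 371 with leukotriene C4, 375 with lipoxin A4 and 454 with lipoxin B4, against 326 in unstimulated cells. The lipoxin B4 array was the highest, with a difference of 0.48. The other TFEB probe set had 233, 260.5, 280.2 and 194 on the same stimulated arrays, against 293 in unstimulated cells. There the lipoxin B4 array was the lowest, with a difference of -0.60, so the probe sets ran in opposite directions. The 9 genes with an E-box had median differences of -0.10 with leukotriene B4, 0.04 with leukotriene C4, 0.01 with lipoxin A4 and -0.28 with lipoxin B4. For the 22 measured genes with a promoter but no E-box the medians were 0.03, 0.06, 0.03 and -0.02.

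As a group, the lysosomal genes lay close to the unstimulated array. The median difference of the 42 genes was 0.02 with leukotriene B4, 0.06 with leukotriene C4, 0.02 with lipoxin A4 and -0.05 with lipoxin B4. For all 15374 measured genes these medians were 0.00, 0.06, 0.00 and 0.00. The number of lysosomal genes above 0 was 23, 24, 26 and 15 in the same order. The shares were 54.8%, 57.1%, 61.9% and 35.7%, beside 47.3%, 57.1%, 48.2% and 44.6% of all measured genes. A gene at the floor on both arrays has a difference of 0 and counts as not above 0. Of all measured genes, 7267, 8780, 7409 and 6852 were above 0 and 6859, 5677, 6684 and 7021 below. Of the lysosomal genes, 18, 17, 16 and 26 were below. Of the 35 lysosomal genes with a signal of at least 500, 60%, 62.9%, 62.9% and 40% were above 0. Of all 7097 genes of that signal, 60.4%, 72.0%, 62.8% and 59.6% were. With quantile normalization the numbers for the lysosomal genes were 20, 16, 17 and 15, and all 4 medians were below 0. The 4 comparisons share the unstimulated array, so they are not independent of one another.

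No lysosomal gene was 2-fold higher on any stimulated array, against 0.702% of all measured genes with leukotriene B4, 1.18% with leukotriene C4, 0.702% with lipoxin A4 and 0.507% with lipoxin B4. The only gene 2-fold lower was ATP6V0D2 with lipoxin A4, where 1.69% of all genes were 2-fold lower. With leukotriene B4, leukotriene C4 and lipoxin B4 the count was 0, beside 1.72%, 1.66% and 1.96% of all genes. At rates this low, the counts do not set 42 lysosomal genes apart from the rest.

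At 1.5-fold, none was higher with any compound, beside 3.47% of all genes with leukotriene B4, 5.67% with leukotriene C4, 3.23% with lipoxin A4 and 3.24% with lipoxin B4. Those 1.5-fold lower were ATP6V1G2 and IDS with leukotriene B4 (7.11% of all genes), none with leukotriene C4 (6.52%), ATP6V0D2 and ATP6V1E2 with lipoxin A4 (6.65%), and ATP6V0E2-AS1 with lipoxin B4 (7.86%). All 5 have a mean signal under 500. Among the 35 lysosomal genes of at least 500 none passed 1.5-fold in either direction, and among all 7097 genes of that signal few did: 0.521% were higher and 1.03% lower on the leukotriene B4 array, 0.761% and 0.986% on the leukotriene C4 array, 0.352% each way on the lipoxin A4 array, and 0.93% and 1.25% on the lipoxin B4 array. The median size of the difference, without its sign, was 0.10, 0.12, 0.06 and 0.12 for the 35 genes with leukotriene B4, leukotriene C4, lipoxin A4 and lipoxin B4, and 0.14, 0.16, 0.11 and 0.16 for the 7097 genes.

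**Figure D3:**
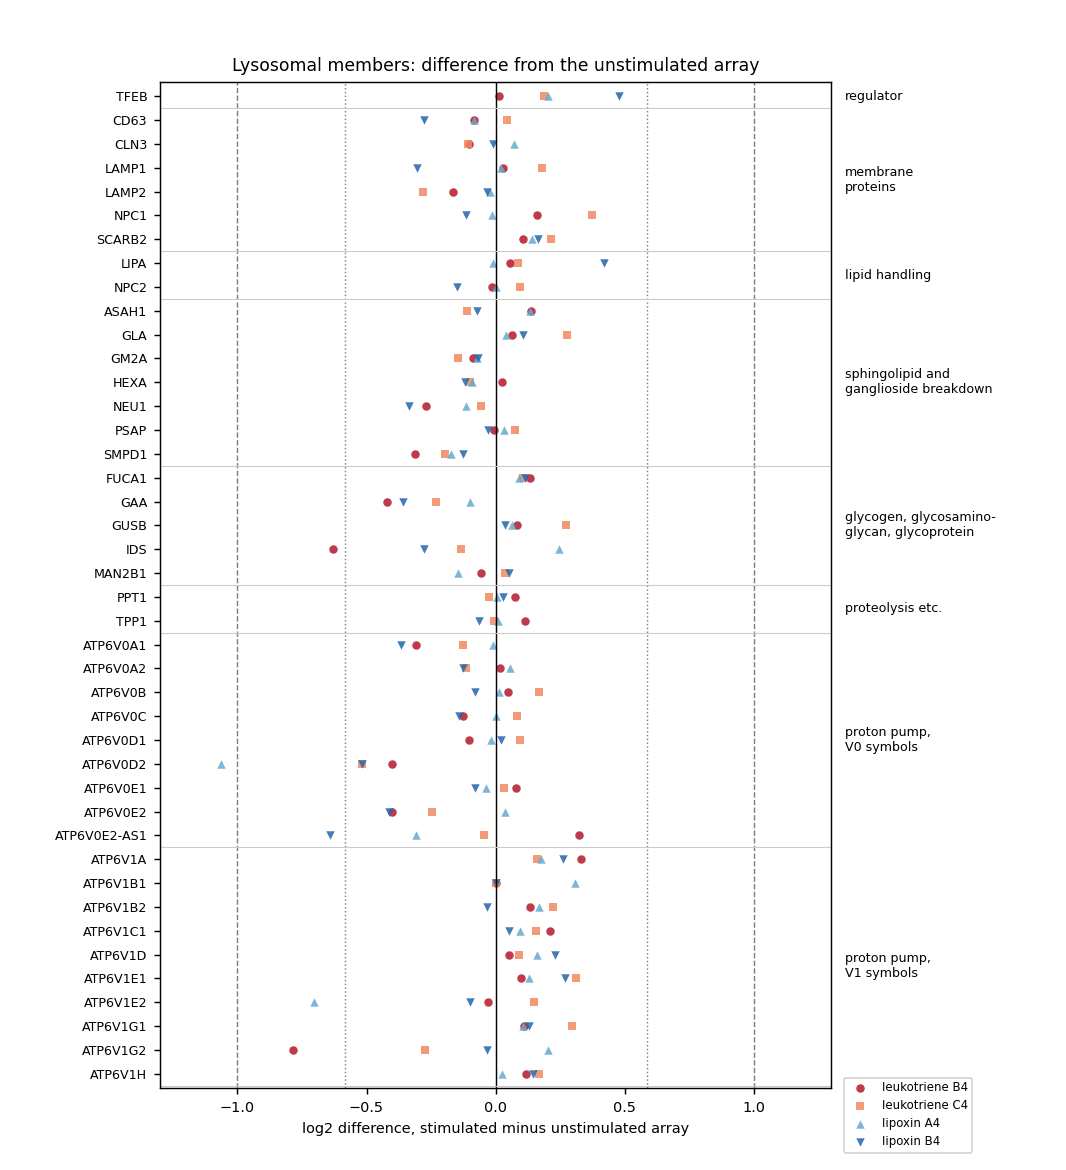
Log2 difference of each measured lysosomal gene from the unstimulated array, by role, with 1 symbol per compound; dotted lines mark 1.5-fold and dashed lines 2-fold. Only dim genes pass a dotted line, ATP6V0D2 with lipoxin A4 alone passes a dashed one, and the V1 subunits lie mostly to the right of 0.

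Among the lysosomal membrane proteins, LAMP1 and CD63 were lowest on the lipoxin B4 array. LAMP1, one of the most abundant glycoproteins of the lysosomal membrane, had signals of 28167 with leukotriene B4, 31246 with leukotriene C4, 28055 with lipoxin A4 and 22396 with lipoxin B4, against 27629 in unstimulated cells. The leukotriene C4 array was the highest and the lipoxin B4 array the lowest, and the difference on the lipoxin B4 array was -0.30. Of its other 3 probe sets, the 2 brighter were also lowest there (-0.35 and -0.21), while the dimmest was highest there (0.54). CD63, a tetraspanin of late endosomes and lysosomes, had 15737, 17204, 15734 and 13783 on the same stimulated arrays, against 16696 in unstimulated cells. Only the leukotriene C4 array lay above the unstimulated one. The differences with lipoxin B4, -0.30 for LAMP1 and -0.28 for CD63, were beside -0.36 for GAPDH, -0.38 for the spiked-in cre control and a median of -0.13 for the 533 genes with a signal of at least 10000. Their part in these differences was not tested.

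LAMP2, which also serves in chaperone-mediated autophagy and in fusion with autophagosomes, depended on the probe set. The brightest had 13759.7 with leukotriene B4, 12714 with leukotriene C4, 15224 with lipoxin A4 and 15104 with lipoxin B4, against 15445 in unstimulated cells, so all 4 stimulated arrays were lower, with differences of -0.28 to -0.02. Its other 3 probe sets were higher on all 4 arrays, with differences of 0.04 to 0.40.

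NPC1, which moves cholesterol out of the lysosome, had 4133 with leukotriene B4, 4791 with leukotriene C4, 3662 with lipoxin A4 and 3417 with lipoxin B4, against 3702 in unstimulated cells. Both leukotriene arrays were above the unstimulated array, by 0.16 and 0.37, and both lipoxin arrays were below it, with differences of -0.02 and -0.12. Of its 2 dimmer probe sets 1 had the same signs, and the other was 2-fold lower with both lipoxins (-1.01 with A4 and -1.60 with B4) and with leukotriene C4 (-1.02). SCARB2, the receptor that carries glucocerebrosidase to the lysosome, had 1455, 1569.8, 1489 and 1515 on the stimulated arrays, against 1352 in unstimulated cells. It was higher on all 4, by 0.11 to 0.22, but its other probe sets did not run one way. CLN3, the membrane protein altered in juvenile Batten disease, differed by -0.11 to 0.07. Its other probe set was lower on all 4 arrays, with differences of -0.37, -0.18, -0.27 and -0.30.

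The 2 lumenal proteins that handle lipids freed from lipoproteins differed from each other. LIPA, the acid lipase that frees cholesterol from its esters, had 4722 with leukotriene B4, 4827 with leukotriene C4, 4509 with lipoxin A4 and 6075 with lipoxin B4, against 4544 in unstimulated cells. The lipoxin B4 array stood apart with a difference of 0.42, while the other 3 lay within 0.09 of the unstimulated array. This was the highest difference of any lysosomal gene with a signal of at least 500 in the 4 comparisons, and LIPA had a single measured probe set to read it. NPC2, which hands cholesterol to NPC1, differed by -0.15 with lipoxin B4 and by -0.02 to 0.09 with the others.

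The enzymes and activators of sphingolipid and ganglioside breakdown showed small differences on both sides of 0, with medians over 7 genes of -0.01 with leukotriene B4, -0.10 with leukotriene C4, -0.07 with lipoxin A4 and -0.07 with lipoxin B4. PSAP, the precursor of the saposins that present sphingolipids to their hydrolases, had 6126, 6486, 6305 and 6031, against 6159 in unstimulated cells, and lay within 0.07 of them on every array. Its other probe set was lower on all 4, with differences of -0.46 to -0.20. SMPD1, the acid sphingomyelinase, had 584 with leukotriene B4, 633 with leukotriene C4, 643 with lipoxin A4 and 663 with lipoxin B4, against 725 in unstimulated cells. All 4 stimulated arrays were lower, with differences of -0.31 to -0.13, and 1 of its other probe sets was lower on all 4 as well, while another was higher with leukotriene C4 and lipoxin A4.

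NEU1, the lysosomal sialidase, had 4040.1 with leukotriene B4, 4686 with leukotriene C4, 4497 with lipoxin A4 and 3867 with lipoxin B4, against 4873 in unstimulated cells. It was lower on every stimulated array, from -0.06 with leukotriene C4 to -0.33 with lipoxin B4. GLA, the alpha-galactosidase lost in Fabry disease, was highest with leukotriene C4, at 3554 against 2937 in unstimulated cells, a difference of 0.28. ASAH1, the acid ceramidase, differed by -0.11 to 0.14 on its brightest probe set. Its 4 measured probe sets, all with a signal of at least 500, spanned 0.14 to 0.26 with leukotriene B4 and -0.11 to 0.36 with leukotriene C4. With lipoxin A4 they spanned 0.07 to 0.32, and with lipoxin B4 -0.07 to 0.35. HEXA, the alpha subunit of beta-hexosaminidase, differed by -0.12 to 0.03, and GM2A, its activator for the ganglioside GM2, by -0.15 to -0.07. Another GM2A probe set with a signal over 500 was lower on all 4 arrays, with -0.48 for leukotriene C4 and -0.69 for lipoxin B4.

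Of the hydrolases of glycogen, glycosaminoglycans and glycoproteins, GAA and IDS gave the lowest values. GAA, the acid alpha-glucosidase that degrades glycogen, had 753 with leukotriene B4, 859 with leukotriene C4, 941 with lipoxin A4 and 786 with lipoxin B4, against 1009 in unstimulated cells. All 4 stimulated arrays were lower, from -0.10 with lipoxin A4 to -0.42 with leukotriene B4, the lowest difference of a lysosomal gene with a signal of at least 500. GAA carries 2 full CLEAR motifs in its promoter, printed above, and was read by 1 probe set.

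IDS, the iduronate sulfatase that starts the breakdown of dermatan and heparan sulfate, had 206 with leukotriene B4, 289.6 with leukotriene C4, 377 with lipoxin A4 and 263 with lipoxin B4, against 318 in unstimulated cells. The leukotriene B4 array was the lowest, with a difference of -0.63, and the lipoxin A4 array the highest. Another of its 7 measured probe sets had 364, 264, 254 and 286, against 241 in unstimulated cells, and there the leukotriene B4 array was the highest, with a difference of 0.59. GUSB, the beta-glucuronidase, was highest with leukotriene C4, at 10926 against 9045 in unstimulated cells (0.27). FUCA1, the alpha-fucosidase, differed by 0.09 to 0.13, and MAN2B1, the alpha-mannosidase, by -0.15 to 0.05.

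The 2 enzymes altered in infantile and late infantile Batten disease were near the unstimulated array. PPT1, which removes palmitate from proteins, differed by -0.03 to 0.07. TPP1, a tripeptidyl peptidase, differed by -0.06 to 0.12 on its brightest probe set. A dim TPP1 probe set had 208 with leukotriene B4, 95 with leukotriene C4, 115 with lipoxin A4 and 218 with lipoxin B4, against 263 in unstimulated cells. It was the lowest with leukotriene C4 and lipoxin A4, with differences of -1.47 and -1.19.

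The proton pump was read by 18 measured subunits. Among the 14 with a signal of at least 500, those of the catalytic V1 sector lay above the unstimulated array and those of the membrane V0 sector near or below it. The 7 V1 subunits had median differences of 0.12 with leukotriene B4, 0.17 with leukotriene C4, 0.13 with lipoxin A4 and 0.15 with lipoxin B4. All 7 were above 0 with leukotriene B4, leukotriene C4 and lipoxin A4, and 6 with lipoxin B4, while 60.4%, 72.0%, 62.8% and 59.6% of all 7097 genes of that signal were above 0. The 7 V0 subunits had medians of -0.10, 0.03, 0.00 and -0.12 in the same order, and 3, 4, 4 and 1 of them were above 0. For the 7097 genes the medians were 0.05, 0.11, 0.05 and 0.05. The same unstimulated array stands in all 4 comparisons, and the subunits were not tested as a set. With quantile normalization the V1 medians were 0.08, 0.09, 0.08 and 0.11 and the V0 medians -0.16, -0.08, -0.05 and -0.13. The V1 subunits above 0 were then 7, 7, 6 and 5, and the V0 subunits above 0 were 1, 1, 1 and 0. With the mean of all measured probe sets of a gene, only 5 V1 and 6 V0 subunits reached 500, and the V0 median with leukotriene B4 was -0.24.

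**Figure D4:**
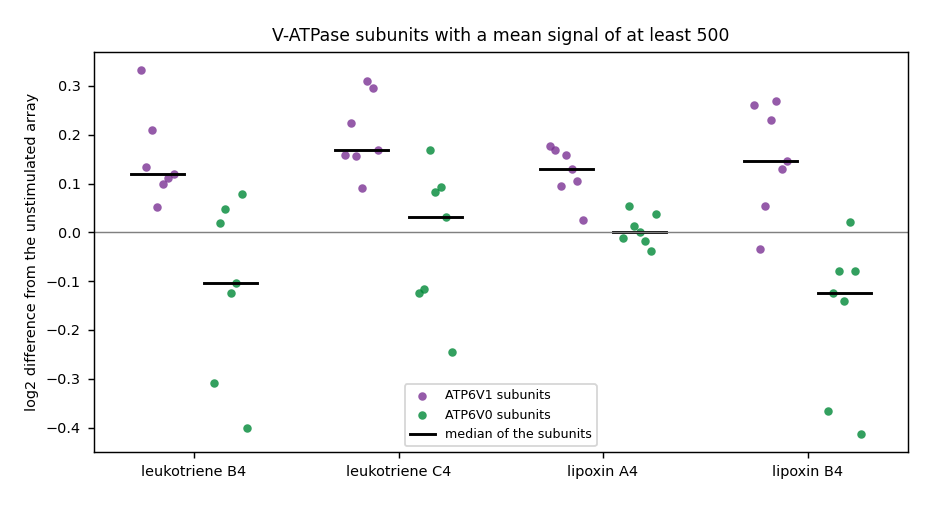
Log2 difference from the unstimulated array for the 7 V1 and the 7 V0 subunits with a mean signal of at least 500; each point is 1 subunit and the bar is the median. The V1 points lie above 0 except ATP6V1B2 with lipoxin B4, and the V0 points spread from -0.41 to 0.17.

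In the catalytic sector, ATP6V1A, the subunit that holds the ATP-hydrolysing site, had 4009.8 with leukotriene B4, 3557 with leukotriene C4, 3600.2 with lipoxin A4 and 3817 with lipoxin B4, against 3185 in unstimulated cells. It was higher on all 4 stimulated arrays, by 0.16 with leukotriene C4 to 0.33 with leukotriene B4, and on its other probe set on all but the lipoxin B4 array. ATP6V1E1, a stalk subunit, had 2509, 2904, 2565 and 2825, against 2343 in unstimulated cells. It was highest with leukotriene C4 (0.31) and lipoxin B4 (0.27).

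ATP6V1G1, another stalk subunit and a bearer of the full CLEAR motif, had 6895 with leukotriene B4, 7832 with leukotriene C4, 6864 with lipoxin A4 and 6983 with lipoxin B4, against 6383 in unstimulated cells. All 4 stimulated arrays were higher, by 0.10 to 0.30, and its other probe set was higher on all 4 as well, by 0.15 to 0.33. ATP6V1B2, the B subunit that completes the catalytic ring, had 4920.3, 5238, 5044 and 4381, against 4487 in unstimulated cells. It was lower with lipoxin B4 and higher with the other 3.

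ATP6V1C1, which links the stalks to the membrane sector, had 3475 with leukotriene B4, 3347 with leukotriene C4, 3209 with lipoxin A4 and 3116 with lipoxin B4, against 3003 in unstimulated cells. The differences were 0.05 to 0.21, and 2 of its 3 other probe sets were above 0 on all 4 arrays. ATP6V1D, part of the central rotor, had 2185, 2247, 2355 and 2475, against 2109 in unstimulated cells, and was highest with lipoxin B4 (0.23). Its 2 probe sets with a signal of at least 500 were above 0 on all 4 arrays. Dimmer ones reached -0.58 with leukotriene C4, -0.43 with lipoxin A4 and -0.16 with lipoxin B4. ATP6V1H, a regulatory subunit, had 2099, 2173, 1968 and 2138, against 1933 in unstimulated cells, with differences of 0.03 to 0.17. Among its 3 measured probe sets, of which only this one reached 500, the lowest differences were -0.20, -0.30, -0.40 and -0.40 in the same order.

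In the membrane sector, ATP6V0C and ATP6V0B form the rotating ring that carries protons. ATP6V0C had 8248 with leukotriene B4, 9531 with leukotriene C4, 9000.0 with lipoxin A4 and 8155 with lipoxin B4, against 8996 in unstimulated cells, and its other probe set was lower on all 4 arrays, with differences of -0.49 to -0.19. ATP6V0B had 9768, 10623, 9544 and 8949.7, against 9453 in unstimulated cells, with differences of -0.08 to 0.17. Both were highest with leukotriene C4 and lowest with lipoxin B4.

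The large subunit that forms the stationary half-channels comes in isoforms that place the pump in different membranes. ATP6V0A1 had 732 with leukotriene B4, 831 with leukotriene C4, 899.7 with lipoxin A4 and 703 with lipoxin B4, against 906 in unstimulated cells. It was lower with leukotriene B4 (-0.31) and lipoxin B4 (-0.37), and its other probe set was lower on all 4 arrays. ATP6V0A2 had 722, 658, 740.1 and 654, against 713 in unstimulated cells, with differences of -0.12 to 0.05. TCIRG1, the isoform of osteoclasts and of other cells of the myeloid line, lies outside the symbol rule and had 1727, 2089, 1718 and 1686, against 1696 in unstimulated cells. It was highest with leukotriene C4, by 0.30.

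The small e subunit has 2 genes here. ATP6V0E2 had 1146 with leukotriene B4, 1276 with leukotriene C4, 1553 with lipoxin A4 and 1136 with lipoxin B4, against 1513 in unstimulated cells. It was lower with leukotriene B4 (-0.40), lipoxin B4 (-0.41) and leukotriene C4 (-0.25), and near the unstimulated array with lipoxin A4 (0.04). ATP6V0E1 had 8935, 8645, 8239.6 and 8005, against 8463 in unstimulated cells, and on this probe set lay within 0.08 of them. Its 4 probe sets with a signal of at least 500 had both signs on every stimulated array. They spanned -0.18 to 0.23, -0.07 to 0.28, -0.07 to 0.32 and -0.27 to 0.19 in the same order. The antisense RNA ATP6V0E2-AS1 had 147, 114, 94.7 and 75.2, against 117 in unstimulated cells. Its order differed from that of ATP6V0E2: it was highest with leukotriene B4 and lowest with lipoxin B4 (-0.64).

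The isoforms known from special tissues were dim, with signals under 200 on every array. ATP6V0D2, the d isoform of osteoclasts and kidney, had 76.9 with leukotriene B4, 71.0 with leukotriene C4, less than the floor of 48.7 with lipoxin A4 and 70.9 with lipoxin B4, against 102 in unstimulated cells. All 4 stimulated arrays were lower, and with lipoxin A4 it was at least 2.09-fold lower. Its other measured probe set was at or above the unstimulated array on all 4 arrays and highest with lipoxin A4, by 0.76. ATP6V0D1, the ubiquitous d isoform, had 3519.7, 4032, 3736 and 3839.6, against 3781 in unstimulated cells, with differences of -0.10 to 0.09.

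ATP6V1E2, the testis isoform of the E subunit, had 168 with leukotriene B4, 189 with leukotriene C4, 105 with lipoxin A4 and 159.7 with lipoxin B4, against 171 in unstimulated cells. Only the lipoxin A4 array stood apart, with a difference of -0.70. On its other probe set the lowest array was that of leukotriene B4, at 53.4 against 167 in unstimulated cells, a difference of -1.65. ATP6V1G2, the neuronal G isoform, was below the floor with leukotriene B4 and had 69.3 with leukotriene C4, 96.3 with lipoxin A4 and 81.8 with lipoxin B4, against 83.7 in unstimulated cells. With leukotriene B4 it was at least 1.72-fold lower. ATP6V1B1, the kidney isoform of the B subunit, was above the floor only with lipoxin A4, at 60.3.

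The 6 measured pump partners outside the symbol rule lay on both sides of 0. Their differences ranged from -0.42 to 0.50 with leukotriene B4 and from -0.36 to 0.30 with leukotriene C4. With lipoxin A4 the range was -0.15 to 0.17, and with lipoxin B4 it was -0.31 to 0.37. The medians were 0.07, 0.04, 0.02 and -0.10 in the same order. ATP6AP2, the prorenin receptor, had 11629 with leukotriene B4, 11119 with leukotriene C4, 12034 with lipoxin A4 and 11588 with lipoxin B4, against 10729 in unstimulated cells, with differences of 0.05 to 0.17. ATP6AP1 had 8059, 8046, 8401 and 6668, against 7921 in unstimulated cells, and was lowest with lipoxin B4 (-0.25). They belong to a list of 74 other lysosomal genes, of hydrolases, transporters, sorting receptors and regulators of TFEB, of which 63 were measured. Of these 63, none was 2-fold apart from the unstimulated array with any compound. At 1.5-fold, 1 was lower with leukotriene B4, 1 higher with leukotriene C4, none either way with lipoxin A4 and 1 higher with lipoxin B4. The medians of the list were 0.04, 0.10, 0.02 and 0.01 in the same order.

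Where several probe sets read 1 gene, they often differed in direction. Of the 13 lysosomal genes with at least 2 probe sets with a signal of 500 or more, all such probe sets of a gene had the same sign for 9 with leukotriene B4, 7 with leukotriene C4, 4 with lipoxin A4 and 7 with lipoxin B4. Over all 105 measured probe sets of the lysosomal genes, 1 was 2-fold higher, a dim one of HEXA with leukotriene B4 (1.05% of all 29426 measured probe sets); the count was 0 on the leukotriene C4 array (1.36%), the lipoxin A4 array (0.802%) and the lipoxin B4 array (0.768%). The number 2-fold lower was 1 with leukotriene B4, of ATP6V1E2 (1.78%), and 2 with leukotriene C4, of NPC1 and TPP1 (1.88%). It was 3 with lipoxin A4, of ATP6V0D2, NPC1 and TPP1 (1.73%), and 1 with lipoxin B4, of NPC1 (2.18%).

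**Figure D5:**
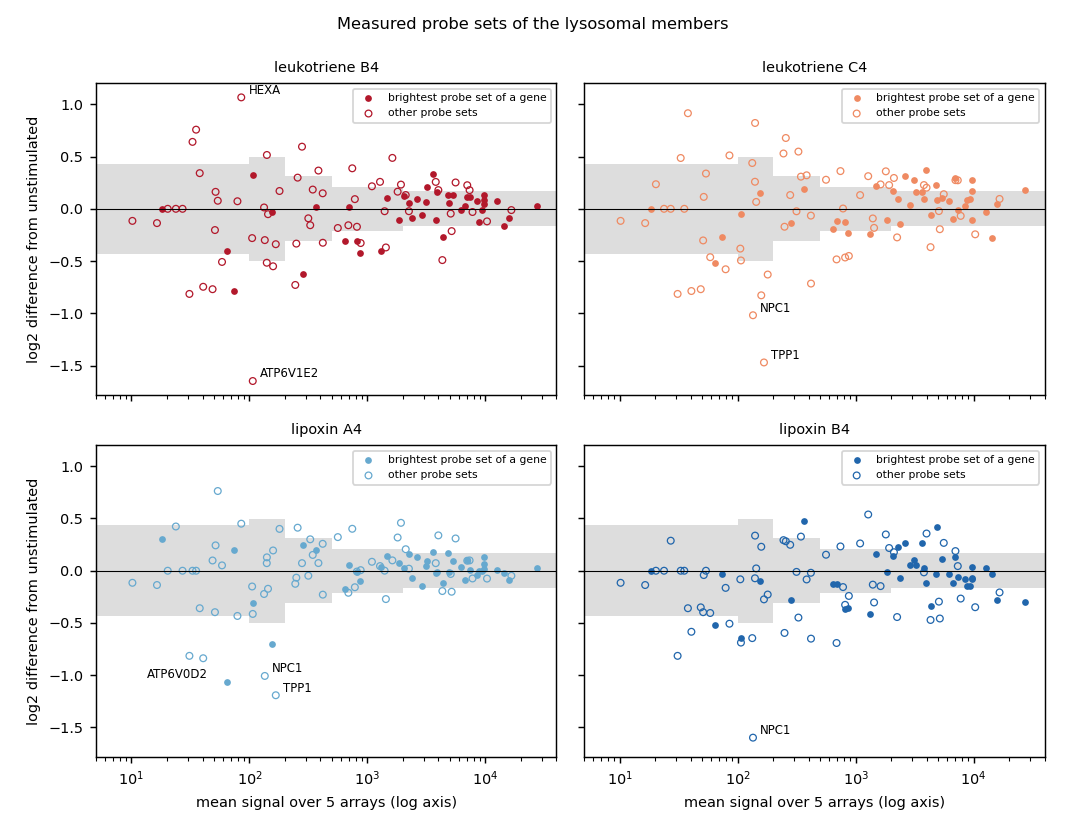
Log2 difference from the unstimulated array against the mean signal (log axis) for the 105 measured probe sets of the lysosomal genes, 1 panel per compound; filled points are the brightest probe set of a gene, and the grey band is the root mean square difference between stimulated arrays at that signal. The probe sets past 2-fold, named in the panels, all have a mean signal under 200.

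Leukotriene C4, which carries glutathione, and leukotriene B4, a dihydroxy acid without it, were compared at the same dose and time. The median of leukotriene C4 minus leukotriene B4 was 0.10 over the lysosomal genes and 0.04 over all measured genes. Above 0 lay 27 of 42 lysosomal genes, 64.3%, beside 55.6% of all measured genes and 64.1% of those with a signal of at least 500. Of all measured genes 8551 were above 0 and 5529 below, and the rest were at 0. No lysosomal gene was 2-fold apart, beside 1.56% of all genes higher and 0.865% lower with leukotriene C4. None was 1.5-fold apart either, beside 6.25% and 3.75%. The largest differences were 0.51 for ATP6V1G2, a bound against the floor, and 0.49 for IDS, and NPC1 differed by 0.21. ASAH1 was lower with leukotriene C4, at 8818, against 10469.6 with leukotriene B4 (-0.25), while its other 3 measured probe sets gave -0.11 to 0.19.

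Lipoxins A4 and B4 are trihydroxy acids that differ in the positions of their hydroxyl groups. The median of lipoxin A4 minus lipoxin B4 was 0.04 over the lysosomal genes and 0.00 over all measured genes. It was 0.14 over the 533 genes with a signal of at least 10000. Above 0 lay 25 of 42 lysosomal genes, 59.5%, beside 45.3% of all measured genes and 49.9% of those with a signal of at least 500. Of all measured genes 6970 were above 0 and 6472 below, and the rest were at 0. No lysosomal gene was 2-fold apart, beside 0.82% of all genes higher and 0.494% lower with lipoxin A4. At 1.5-fold none was higher (3.97% of all genes) and ATP6V1E2 was lower (-0.60; 3.03%). LIPA had 4509 with lipoxin A4 and 6075 with lipoxin B4, a difference of -0.43. LAMP1 ran the other way, with 28055 with lipoxin A4 and 22396 with lipoxin B4 (0.33), as did ATP6V0E2 (0.45) and the dim IDS (0.52). These are 2 pairs of single arrays, so no interval of a difference can be given.

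Set against each other as classes, the leukotriene and the lipoxin arrays differed by a median of 0.03 over the lysosomal genes, leukotrienes minus lipoxins, and of 0.02 over all measured genes. Both leukotriene arrays lay above both lipoxin arrays for 10 of 42 genes, 23.8%, beside 17.3% of all measured genes and 21.4% of those with a signal of at least 500. These 10 included NPC1, LAMP1, CD63, GUSB and ATP6V1C1. Both lay below for 7 genes, 16.7%, beside 11.2% and 13.2%, and TFEB, LAMP2, SMPD1, GM2A, CLN3, ATP6V1D and ATP6V1G2 made up this set. These orders were read on the brightest probe set of each gene. On the other probe set of TFEB and on that of CLN3, the leukotriene arrays did not both lie below both lipoxin arrays. No lysosomal gene was 2-fold apart between the classes (0.202% of all genes higher, 0.117% lower). Past 1.5-fold were ATP6V0E2-AS1, higher by 0.61 (2.13% of all genes), and ATP6V1G2, lower by 0.61 with 1 array at the floor (1.06%). The compounds of a class are different molecules and not replicates.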

How the data were processed

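Total RNA of MonoMac6 cells was hybridised to 1 array per condition; groups came from the sample titles. The authors deposited 1 linear intensity signal for each of 54675 probe sets per array, made with GCOS 1.4 per the submitters' processing notes; how GCOS computed the signal was not stated there. The mean signal without the highest and lowest 2% was equal across arrays, so each had been scaled before deposit. Probe sets were named from the platform annotation.

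From these values, log2 signals were scaled by 1 factor per array, and values under the 50th percentile of the mean log2 signal (48.7) were set to it. Each gene was read by its brightest measured probe set. With 1 array per condition no p-value was computed, and the number of arrays limits the precision. Python 3.11.15, numpy 2.4.6 and pandas 2.3.3 were used, and the counting was checked on simulated data. All members are named; values on every array are given for members 1.5-fold apart, the 5 with the largest mean difference each way, TFEB, LAMP1, LAMP2, CD63, PSAP and isoforms of pump subunits, and other lysosomal genes are named only if 2-fold apart, or as TCIRG1, ATP6AP1 and ATP6AP2. Values of further members were added after they were seen. The members and lists were chosen with earlier results of these data known. Alternatives changed the floor, the scaling and the probe set that stands for a gene.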

Additional observations from a re-analysis of the deposited data

Results flagged for a closer look

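The middle control probe set for 18S ribosomal RNA, which belongs to no comparison above, was brighter on every stimulated array than on the unstimulated array. Its signal was 4.9 times that of the unstimulated array with leukotriene B4, 16.5 times with leukotriene C4, 1.96 times with lipoxin A4 and 5.66 times with lipoxin B4. The much brighter 3′ probe set gave smaller ratios of 2.98, 3.41, 1.90 and 2.15 in the same order. 18S rRNA was singled out as a signal outside the main measurement, and its part in the differences of the lysosomal genes was not tested.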

How the results depend on the processing

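Of 132 medians recomputed under the alternatives, 129 moved by less than 0.1 on the log2 scale; these include the medians of the V0 and V1 subunits of at least 500, a choice made after seeing the data. The exceptions were the V0 subunits with leukotriene B4, -0.10 with the brightest probe set and -0.24 with the mean of all measured probe sets, the V0 subunits with leukotriene C4, 0.03 and -0.079 after quantile normalization, and the V-ATPase subunits with leukotriene C4, 0.09 with the brightest probe set and -0.0097 with the mean of all measured probe sets. Counts of lysosomal genes past a fold rest on dim probe sets; 35 of 84 recomputed counts changed by more than 1.5 times. At 2-fold, a floor at the 30th percentile (17.4) gave 1 gene with leukotriene B4, 1 with leukotriene C4, 2 with lipoxin A4, 2 with lipoxin B4, 2 for leukotriene C4 over B4 and 3 for lipoxin A4 over B4; preferring, where a gene has one, a probe set not marked as able to match several transcripts gave 1 with leukotriene C4, 2 with lipoxin A4 and 2 for leukotriene C4 over B4; and the single gene with lipoxin A4 became 0 with a floor at the 70th percentile (244), quantile normalization or the mean of all probe sets. At 1.5-fold, the lower floor gave 1 with leukotriene C4, 5 with lipoxin A4, 3 with lipoxin B4, 3 for leukotriene C4 over B4 and 4 for lipoxin A4 over B4, and the higher floor gave 0 with lipoxin A4, lipoxin B4 and leukotriene B4, for lipoxin A4 over B4 and for leukotrienes over lipoxins. That preference gave 4 with leukotriene B4, 4 with leukotriene C4, 4 with lipoxin A4, 2 for leukotriene C4 over B4 and 2 for lipoxin A4 over B4. The mean of probe sets gave 0 with lipoxin A4, 2 with lipoxin B4, 1 for leukotriene C4 over B4 and 0 for lipoxin A4 over B4; quantile normalization gave 0 with lipoxin B4, 2 for lipoxin A4 over B4 and 1 for leukotrienes over lipoxins; and the deposited signals gave 1 with leukotriene C4. IDS with leukotriene B4 was -0.63, but 0.064 as the mean of its probe sets. The causes were not tested. Of all genes past 2-fold, 29.3% were higher with lipoxin A4 and 43.9% after quantile normalization, 20.5% with lipoxin B4 and 40.9% after it, and 63.3% for leukotrienes over lipoxins and 45.1% after it.

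No paired analysis was possible because each condition has 1 array, and no replicate was left out. Single signals near the floor of 48.7 carry the largest differences and the least precision.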
